A study of Arabidopsis thaliana with 3 samples.

Results

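The genes described here are 38 auxin-response genes of Arabidopsis, chosen by locus identifier out of the 32399 nuclear loci in the count files. They are 29 Aux/IAA genes (IAA1 to IAA20 and IAA26 to IAA34) and 9 GH3 genes (GH3.1 to GH3.6, GH3.9, GH3.10 and GH3.17). All 38 loci carried the listed name as symbol or synonym in the reference annotation.

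Auxin-bound receptors act on the Aux/IAA proteins, short-lived repressors that sit on auxin response factors (ARFs) and bring in TOPLESS corepressors. Auxin glues an Aux/IAA protein to the receptor TIR1 or an AFB relative through a short stretch called the degron, the repressor is then destroyed, and ARF target genes can be transcribed. Many Aux/IAA genes are themselves ARF targets, and so are several GH3 genes, which encode enzymes that join auxin or related hormones to amino acids and so lower the free hormone. In the inflorescence meristem, auxin maxima mark where the next flower primordium starts.

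RNA was sequenced from 3 untreated libraries of the accession Col-0, the laboratory wild type, which form 1 group with no contrast between conditions. Each library pooled 10 dissected inflorescence meristems, cleared of flower buds to stage P5, from plants kept 4 weeks at 8 h of light a day and then 2 weeks at 16 h. Nothing in the labels tells if plants for each pool were raised separately, so p-values measure only the spread between these libraries, which may be technical. Levels are averages over a pool, in which fewer cells of a type and less RNA per cell cannot be told apart.

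The libraries held 29078107, 28933042 and 27236559 nuclear counts in replicates 1, 2 and 3, so a level of 1 CPM, the usual scaling of counts to library size, is 29.1, 28.9 and 27.2 counts. For a gene with no counts the upper limit (3 counts) is 0.103, 0.104 and 0.110 CPM, which covers counting error only. The meristem gene STM stood at 98.1, 126 and 116 CPM, the flower gene LFY at 77.0, 82.5 and 107 CPM and AP1 at 249, 259 and 282 CPM, whereas the root gene PLT1 was listed at 0 throughout. Of the 4 meristem genes 3 were expressed, WUS among them at 3.78, 3.32 and 4.74 CPM, and CLV3 fell short of the threshold of 1 CPM in each library at 0.688, 0.899 and 1.10 CPM. Of 5 genes of the root list 2 were expressed, SCR and SHR. The libraries differed in genes outside the auxin pathway, in lists chosen with earlier results of these data known. Summed over 8 genes of the early response to touch and wounding, the level was 924, 531 and 315 CPM, over 4 carbon starvation genes it was 4485, 2096 and 4304 CPM, and over 3 tapetum genes it was 129, 23.2 and 25.3 CPM. LAP6, at 24.3, 22.4 and 25.2 CPM, made up nearly all of the tapetum sum in replicates 2 and 3.

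The degron is the sequence on which auxin perception by the family turns, and its codons are shown here because the members differ in it. In 23 of the 29 Aux/IAA genes the first coding model held in-frame codons for Gly-Trp-Pro-Pro, followed by Val in 17, Ile in 5 and Leu in 1, IAA10. The stretches below are read from the reference genome TAIR10.1 on the coding strand. Capitals mark the 5 codons of the core. The search first required Val at the end of the core, and any codon was allowed there after the sequences had been seen.
IAA8: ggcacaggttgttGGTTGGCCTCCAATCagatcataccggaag
IAA9: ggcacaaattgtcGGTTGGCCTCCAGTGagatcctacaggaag
IAA4: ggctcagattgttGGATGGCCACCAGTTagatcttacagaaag
IAA3: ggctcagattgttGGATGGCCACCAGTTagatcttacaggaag
IAA12: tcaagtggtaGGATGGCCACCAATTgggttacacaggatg
IAA10: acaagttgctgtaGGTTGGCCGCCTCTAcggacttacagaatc
IAA19: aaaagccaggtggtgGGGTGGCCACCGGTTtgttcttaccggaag
These lie at chr2:9637721-9637763 (IAA8, plus strand), chr5:26255100-26255142 (IAA9, plus), chr5:17550736-17550778 (IAA4, plus), chr1:1129010-1129052 (IAA3, minus), chr1:1241057-1241096 (IAA12, plus), chr1:1060324-1060366 (IAA10, plus) and chr3:5264301-5264345 (IAA19, plus). IAA8, the member with the highest level, has an isoleucine codon at the end of the core, and its closest relative IAA9 has a valine codon. IAA3 and IAA4 share every base of the core, although their levels lay far apart, as given further on.

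The 6 genes without these codons were IAA20, IAA30, IAA31, IAA32, IAA33 and IAA34, and proteins of this kind are known to escape rapid auxin-driven breakdown. To compare genes, CPM was divided by the length of the exons and rescaled to the same total in each library, which gives a level here called TPM-like. By this level the 23 genes with the codons ranged from 0 to 323 with a median of 7.41, and the 6 without from 0.352 to 14.2 with a median of 1.14. The 6 genes held 2.34%, 1.81% and 1.90% of the summed level of the family in replicates 1, 2 and 3. The Aux/IAA transcript pool of the dissected meristem was thus almost wholly of the type with the degron codons in each of the 3 libraries. The pattern Leu-x-Leu-x-Leu, by which repressors of this kind bind TOPLESS, was searched as in-frame codons over the whole coding sequence. It was found in 28 of the 29 genes, IAA33 being the exception. A match at any position was counted, so it need not be the stretch that binds TOPLESS.

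Of the 29 Aux/IAA genes, 20 reached 1 CPM in each library, 7 had counts below that, and 2, IAA6 and IAA15, were listed at 0 in all 3. Of the 9 GH3 genes 7 reached it, GH3.1 had few counts and GH3.4 was listed at 0. Among all nuclear protein-coding genes the share that passed the same threshold was 63.2%, so the members' 69.0% and 77.8% lay not far above the background. The median TPM-like level over all 29 Aux/IAA genes was 5.28 and over all 9 GH3 genes 21.5, against 9.64 over all nuclear protein-coding genes. At a threshold of 5 CPM, 13 Aux/IAA genes remained, with IAA1, IAA3, IAA7, IAA10, IAA17, IAA20 and IAA28 lost, and the GH3 count stayed at 7.

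**Figure D1:**
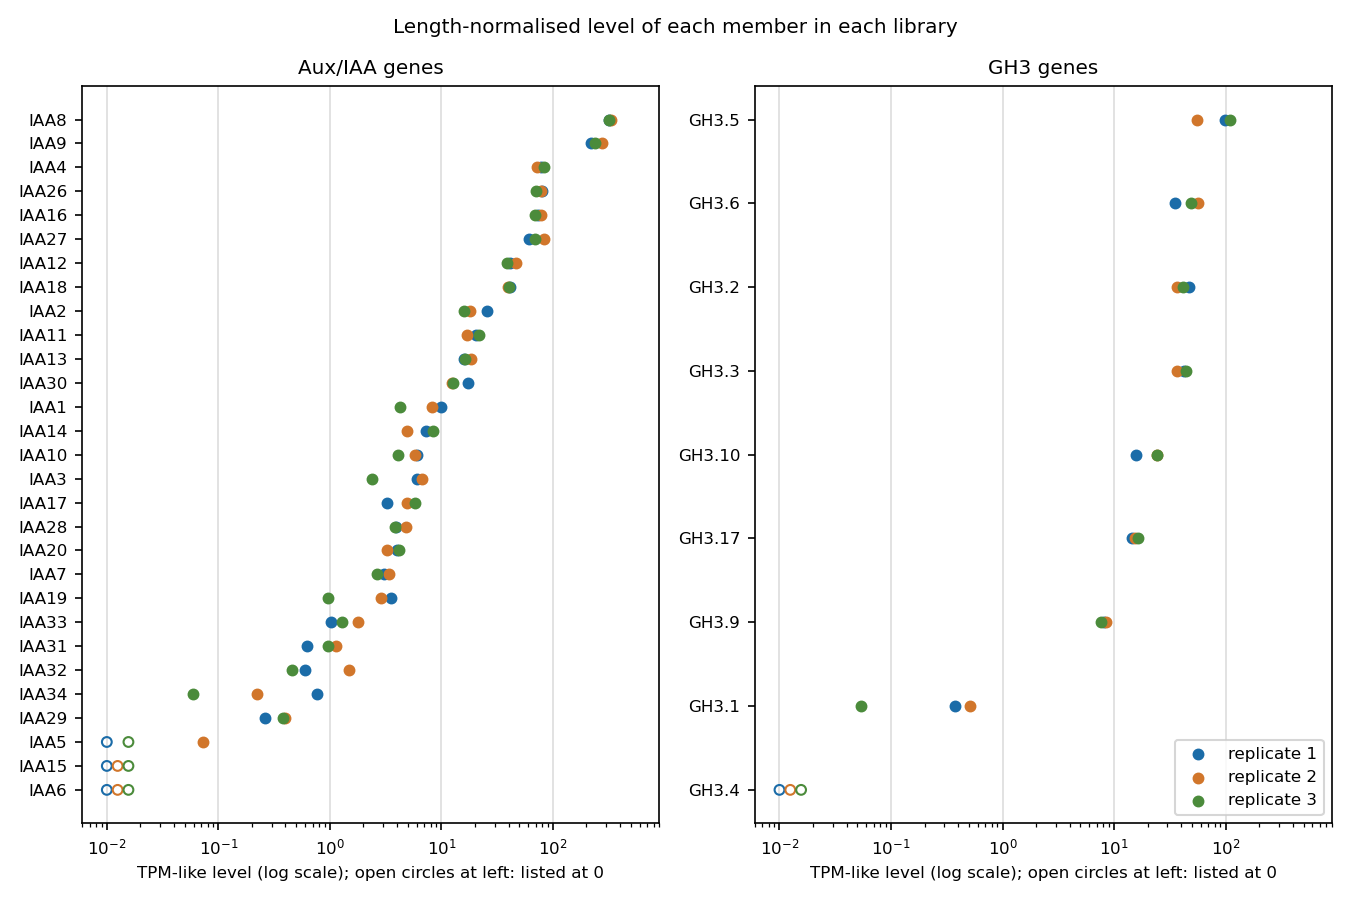
TPM-like level of each Aux/IAA gene (left) and GH3 gene (right) on a log axis, with 1 point for each of the 3 libraries and open circles for libraries in which the gene was listed at 0. IAA8 and IAA9 stand apart at the top with means of 323 and 246, and GH3.5 leads the GH3 genes with a wide spread between libraries.

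The highest member was IAA8 (AT2G22670, chromosome 2, 9636346 to 9638761), with TPM-like levels of 316, 332 and 322 in replicates 1, 2 and 3. Its values in CPM were 400, 416 and 400, so the libraries differed by little. IAA9 (AT5G65670, chromosome 5, 26253408 to 26256544), whose tomato counterpart is known for its part in leaf shape and fruit set, followed with TPM-like levels of 221, 278 and 239. IAA8 was above IAA9 in each library, and both were above every other member in each library. Together they made up 51.6%, 54.2% and 54.0% of the summed Aux/IAA level, a mean of 53.3 ± 1.47% (SD, n = 3).

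A group of 4 genes came next and could not be put in order. IAA4 had TPM-like levels of 77.9, 71.8 and 83.8. IAA26, also called PAP1 because its protein was found as a partner of phytochrome, had 79.9, 77.9 and 70.0. IAA16 had 73.3, 78.5 and 68.7, and IAA27, or PAP2, had 61.0, 83.6 and 69.5. No neighbours among these 4 kept the same order in 3 of 3 libraries, so they did not differ beyond their spread. All 4 were above IAA12 and IAA18 in every library.

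IAA12 (AT1G04550, chromosome 1, 1240294 to 1242157) is BODENLOS, the repressor that holds back ARF5 in the embryo, and it had TPM-like levels of 41.1, 47.1 and 38.7. IAA18 was close to it, with 41.3, 39.6 and 40.2. The order of these genes changed between libraries. IAA18 varied little between libraries, at 43.8 ± 1.24 CPM (SD, n = 3, as for every ± here).

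Lower down, IAA2 had TPM-like levels of 25.5, 18.1 and 15.8, IAA11 had 20.3, 17.1 and 21.96, and IAA13 had 15.9, 18.4 and 16.2. IAA30 had 17.3, 12.4 and 12.8 and was the highest of the 6 genes without the degron codons, while IAA20, the other expressed gene of that type, had 4.02, 3.27 and 4.18. The ranking of IAA2, IAA11, IAA13 and IAA30 was not the same in all libraries. IAA2 and IAA11 were each above IAA30 in every library. Over the 20 expressed Aux/IAA genes, 5 of 19 steps between neighbours in the ranking held in 3 of 3 libraries, namely IAA8 over IAA9, IAA9 over IAA4, IAA27 over IAA12, IAA18 over IAA2 and IAA30 over IAA1. An order that held is weak evidence by itself, since an exact sign-flip permutation test over 3 libraries gives a two-sided p no lower than 0.25.

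Several genes near the bottom of the expressed range follow, some of them best known from roots and seedlings. They were picked after their levels had been seen, so they show no tissue pattern of the family. IAA14, or SOLITARY-ROOT, which represses lateral root formation, had TPM-like levels of 7.21, 4.93 and 8.40. IAA17, or AXR3, had 3.27, 4.91 and 5.81, IAA28, a repressor of lateral roots, had 3.95, 4.82 and 3.803, and IAA7, or AXR2, had 3.05, 3.42 and 2.64. IAA10 had 5.99, 5.77 and 4.09. IAA7 was the lowest of these 5 in every library, and none of them came near the levels of IAA12 or IAA18.

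Below 1 CPM in at least 1 library were 7 genes with counts. IAA19, or MSG2, a gene of hypocotyl bending, had 64, 51 and 16 counts in replicates 1, 2 and 3, and passed 1 CPM in replicates 1 and 2 only. IAA32 had 20, 49 and 14 counts, IAA33 had 14, 24 and 16, and IAA31 had 10, 18 and 14. These 3 genes lack the degron codons, as does IAA34 with 14, 4 and 1 counts. IAA29, a gene known from shade and light responses in seedlings, had 6, 9 and 8 counts, and IAA5 had 0, 1 and 0. GH3.1 had 15, 20 and 2 counts, so its low level in replicate 3 rests on few reads.

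**Figure D2:**
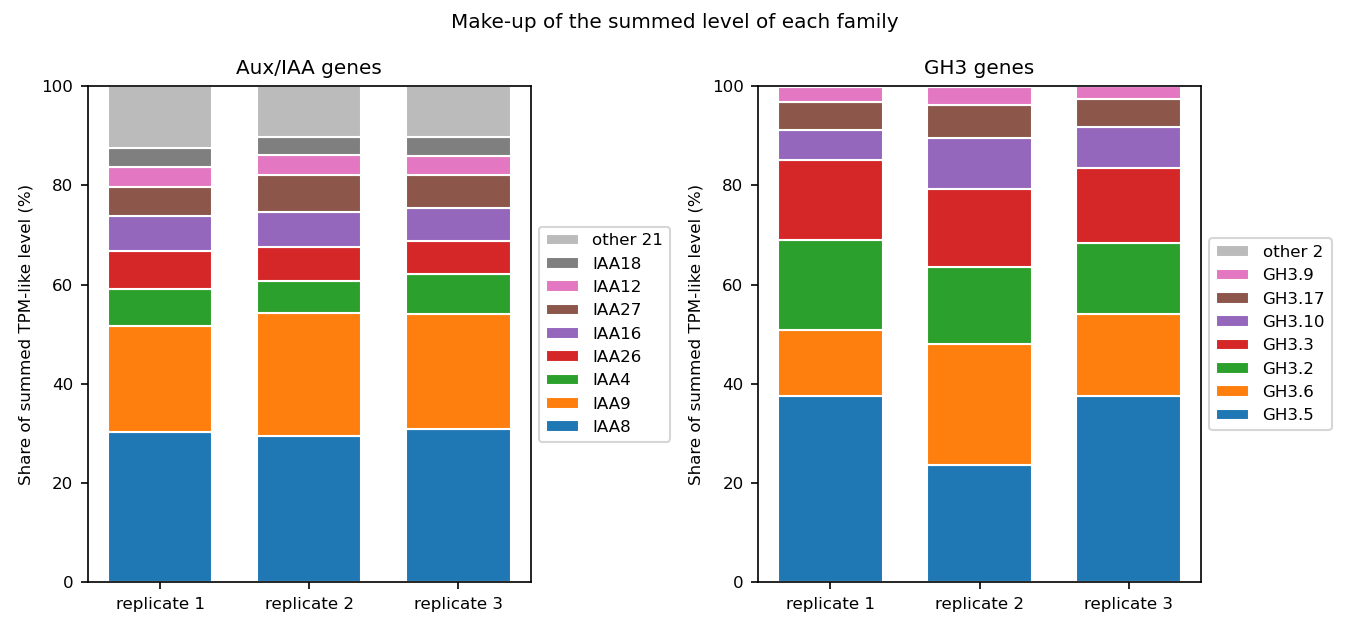
Share of the summed TPM-like level of each family held by its leading members in each library, as stacked bars that add to 100%. IAA8 and IAA9 fill over 51% of the Aux/IAA bar in each library, and GH3.5 falls from 37.5% in replicates 1 and 3 to 23.7% in replicate 2.

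Among the GH3 genes, GH3.5, GH3.6, GH3.2 and GH3.3 held most of the summed level. GH3.5 (AT4G27260, chromosome 4, 13653579 to 13656285), also called WES1, acts on auxin and on salicylic acid, and it stood at 142, 79.9 and 157 CPM. GH3.6 (AT5G54510, chromosome 5, 22130964 to 22133688), or DFL1, stood at 49.9, 80.6 and 68.0 CPM. GH3.5 was lowest in replicate 2, where GH3.6 was highest. GH3.2, or YDK1, had 63.2, 48.3 and 54.6 CPM and GH3.3 had 54.9, 47.4 and 56.8 CPM, and each was lowest in replicate 2 as well. By TPM-like level GH3.5, GH3.6, GH3.2 and GH3.3 held 85.1%, 79.2% and 83.5% of the GH3 sum.

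The remaining expressed GH3 genes were lower per length and kept a fixed order. GH3.10, or DFL2, had TPM-like levels of 15.8, 24.4 and 24.2. GH3.17, which makes the auxin conjugate with glutamate, had 14.6, 15.5 and 16.4, and GH3.9 had 8.12, 8.52 and 7.69. In each library GH3.3 exceeded GH3.10, GH3.10 exceeded GH3.17 and GH3.17 exceeded GH3.9, whereas the neighbours among GH3.5, GH3.6, GH3.2 and GH3.3 changed places between libraries. GH3.5 was nonetheless above GH3.2 and GH3.3 in every library. GH3.4 was listed at 0, and its closest relative among the members is GH3.2, with 90.0% of coding bases identical. How the authors' counting treated reads that fit both genes is not given in the sources used here, so a split between these copies is uncertain.

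Spread between libraries was tested for every nuclear gene that passed edgeR's filter on low counts, as variation beyond that of genes of like level. Of the 30 members tested, 1 passed, which was GH3.5 (edgeR goodness of fit, adjusted p = 0.0313), against 2.52% of the 18334 genes tested, so the count of members lay near the background. The ratio of its highest to its lowest CPM was 1.96. Its biological coefficient of variation, an estimate of the SD relative to the mean beyond counting error, was 0.248 against a trend of 0.136. In this edgeR estimate each gene's value is drawn toward the trend, so it is not the gene's own observed spread. The call rests on few libraries. It held without replicate 1 (edgeR, adjusted p = 0.0114) and with DESeq2 size factors (edgeR, adjusted p = 0.0299). It ended without replicate 2 (edgeR, adjusted p = 1) and without replicate 3 (edgeR, adjusted p = 0.236), and also with no filter on low counts (edgeR, adjusted p = 0.0561). The carbon starvation genes DIN1, DIN6 and DIN10 were low in the same library, with 539, 189 and 526 CPM for DIN1, 1112, 553 and 1482 CPM for DIN6 and 1757, 697 and 1458 CPM for DIN10. These genes are from a list chosen with earlier results of these data known, and their part in the GH3.5 result was not tested.

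GH3.6 and GH3.10 did not pass the same test (edgeR, adjusted p = 0.586 and 0.602). Both were lowest in replicate 1, GH3.10 standing at 34.1, 52.2 and 51.5 CPM. Their coefficients of variation by the same edgeR estimate were 0.172 and 0.175, above trends of 0.122 and 0.124. Among the tapetum genes 2 of 3 stood high in replicate 1, ACOS5 at 46.2, 0.415 and 0.0734 CPM and AMS at 58.3, 0.380 and 0.0367 CPM, while LAP6 of the same list was not. The jasmonate-induced VSP2 was low there, at 380, 794 and 965 CPM. These lists too were chosen with earlier results of these data known. The part of these genes in the values of GH3.6 and GH3.10 was not tested. Of the 30 members 12 lay above the trend, against 19.1% of the genes tested, and these 12 were 8 Aux/IAA and 4 GH3 genes.

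**Figure D3:**
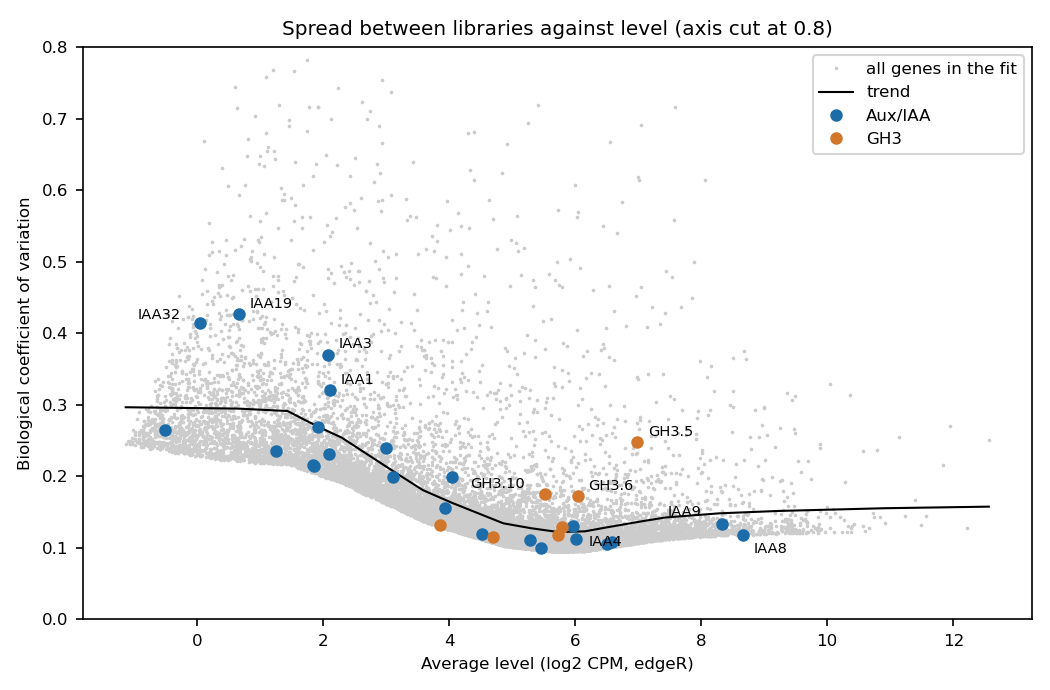
Biological coefficient of variation of each gene against its average level (log2 CPM), with the genes of the fit in grey (the axis ends at 0.8), the trend as a line, and the Aux/IAA and GH3 members as coloured points. Values are edgeR estimates, in which each gene is drawn toward the trend. GH3.5 lies well above the trend at 0.248, while IAA8 and IAA9 lie below it.

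Among the Aux/IAA genes none of 23 passed (edgeR, smallest adjusted p = 0.617, for IAA19), while 16 of the 23 varied beyond Poisson counting error alone. That second share is 61% over all genes tested. A highest CPM of 2 or more times the lowest was seen in 4 of the 30 members, IAA1, IAA3, IAA19 and IAA32, against 6.97% of all genes tested. All 4 had low levels, whereas that share covers genes of every level, so the comparison is not like with like. IAA1 stood at 5.71, 4.70 and 2.42 CPM, IAA3, or SHY2, at 5.02, 5.50 and 1.95 CPM and IAA19 at 2.201, 1.76 and 0.587 CPM. These 3 genes were each lowest in replicate 3, with ratios of highest to lowest of 2.36, 2.82 and 3.75. IAA32, at 0.688, 1.69 and 0.514 CPM, was lowest in replicate 3 as well, with a ratio of 3.29. IAA2, with 21.3, 14.9 and 13.0 CPM, was lowest there too, with a ratio of 1.64. IAA14 and IAA17 were not low in replicate 3, with 8.36, 5.67 and 9.58 CPM for IAA14 and 2.65, 3.94 and 4.63 CPM for IAA17. Of the other expressed Aux/IAA genes, IAA7, IAA8, IAA10, IAA12, IAA16, IAA26 and IAA28 were lowest in replicate 3 as well. IAA4, IAA9, IAA11, IAA13, IAA18, IAA20, IAA27 and IAA30 were not. The share of all genes lowest there was not computed, so a low replicate 3 is not shown to be particular to these genes.

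Of the 8 early response genes 6 were also lowest in replicate 3. The list was chosen with earlier results of these data known, so this count is no independent result. The share of all genes lowest in replicate 3 was not computed. WRKY40 stood at 136, 43.1 and 19.8 CPM, TCH4 at 259, 168 and 63.7 CPM and ZAT12 at 63.4, 29.9 and 8.26 CPM. All 8 were expressed, and 6 of them, JAZ10 included, varied between libraries by the same edgeR test. JAZ10 ran the other way, with 11.6, 23.5 and 29.6 CPM. The part of these genes in the low values of IAA1, IAA3 and IAA19 was not tested.

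**Figure D4:**
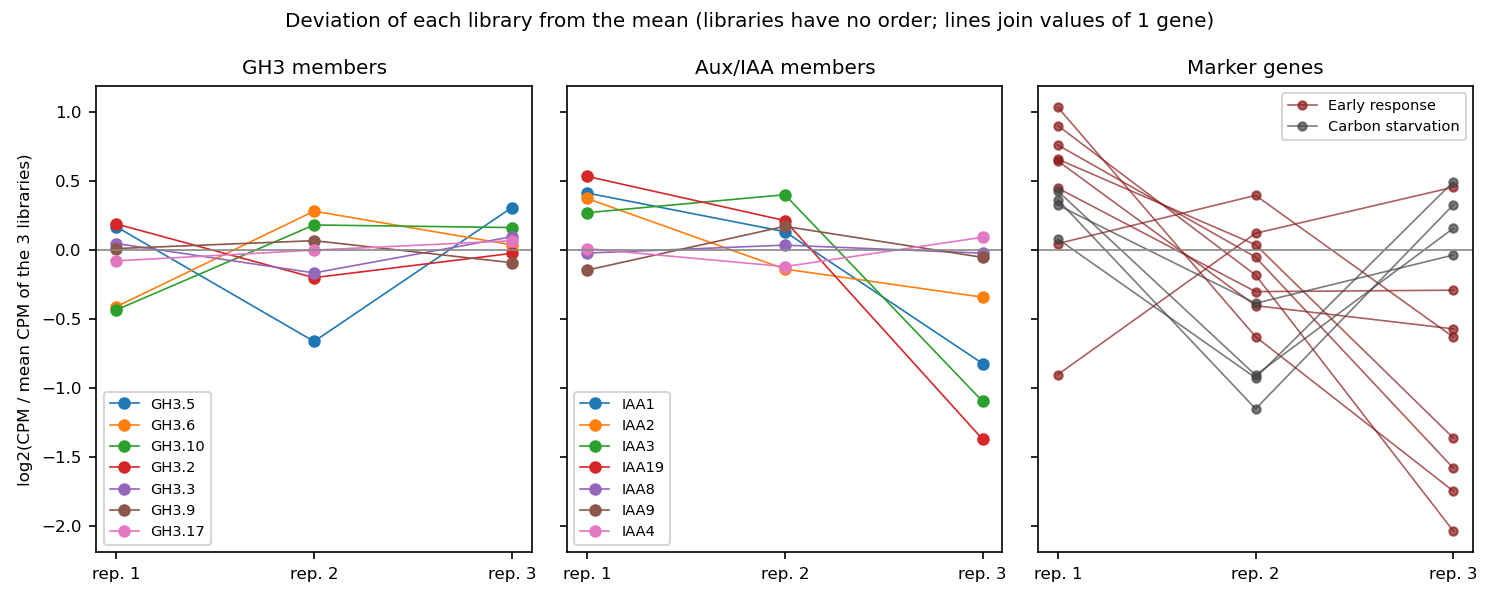
Deviation of each library from the mean of the 3 libraries, as log2 of CPM over the mean CPM, for 7 GH3 genes (left), 7 Aux/IAA genes (middle) and the early response and carbon starvation genes (right). Lines join the values of 1 gene and imply no order. GH3.5 dips in replicate 2 and IAA1, IAA3 and IAA19 dip in replicate 3, while IAA8, IAA9 and IAA4 stay near 0.

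Levels were also compared within pairs of close relatives. Of 12 pairs of related members, 9 had a member at 1 CPM or more in each library and counts in both. In 8 of these the log2 ratio of TPM-like levels had the same sign in 3 of 3 libraries. The share among pairs of unrelated genes was not computed, so this count shows nothing particular to relatives. An exact sign-flip permutation test over 3 libraries cannot give a two-sided p below 0.25, so no pair could pass a threshold of 0.05, and the ratios are given with their spread.

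The widest gap was between IAA3 and IAA4, which share 78.8% of coding bases and the whole degron core shown above. The log2 ratio of IAA3 to IAA4 was -3.69, -3.43 and -5.13 in replicates 1, 2 and 3, a mean of -4.08 ± 0.92, so IAA4 was 16.9-fold higher. IAA10 lay below IAA11 by log2 ratios of -1.76, -1.56 and -2.42. IAA20 lay below IAA30 by -2.10, -1.91 and -1.60, although these genes share 82.0% of coding bases. In all 3 pairs the gap exceeded the spread between libraries several times over.

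IAA1 was below IAA2 with a mean log2 ratio of -1.47 ± 0.38, and IAA7 below IAA14 with -1.14 ± 0.57. The gap between IAA1 and IAA2 depends on the gene length used, being -1.94 by coding length. IAA18 was below IAA26 by -0.91 ± 0.09. IAA12 exceeded its relative IAA13 by 1.32 ± 0.06, or 0.77 with no length correction, and IAA8 exceeded IAA9 by 0.40 ± 0.13, the smallest gap of the 8.

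GH3.5 and GH3.6, with 84.1% of coding bases in common, were the 1 pair of the 9 with mixed signs. Their log2 ratio was 1.49, -0.04 and 1.18, a mean of 0.88 ± 0.81 (two-sided exact sign-flip permutation p = 0.5, n = 3). In replicate 2 the transcripts stood about level, and in the other libraries GH3.5 was ahead. For the pair IAA6 and IAA19, IAA6 was listed at 0, and IAA19 was at least 18.1, 14.4 and 4.53-fold higher per length (against 3 counts per library). GH3.3 had 1597, 1371 and 1548 counts where GH3.4 was listed at 0, and no fold is given because the split of reads between GH3.4 and its close copy GH3.2 is uncertain. IAA32 and IAA34 were both under 1 CPM in at least 1 library, and their ratio changed sign.

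**Figure D5:**
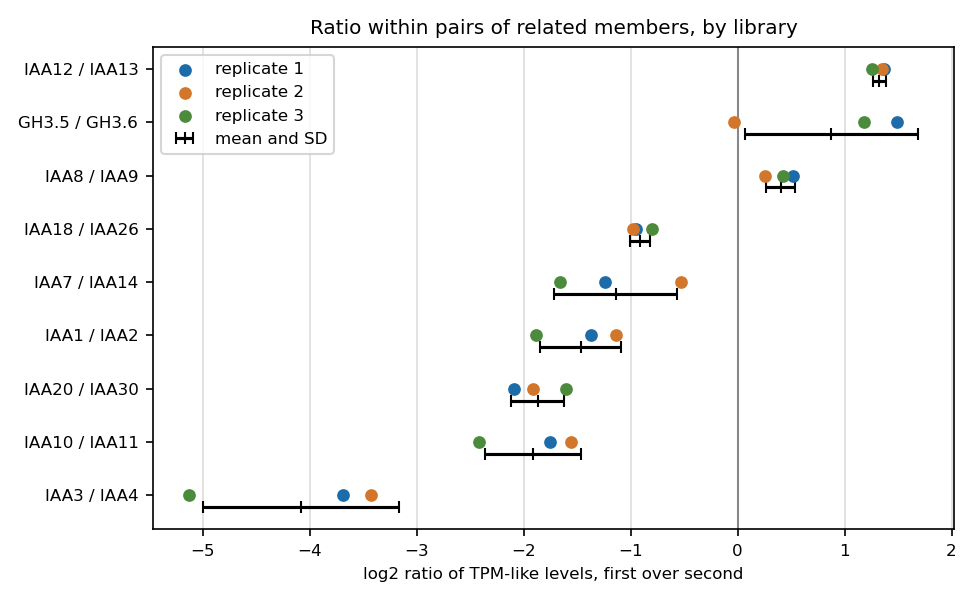
Log2 ratio of TPM-like levels within 9 pairs of related members, first gene over second, with a point for each library and the mean with its SD (n = 3) in black. In 8 pairs all points lie on the same side of 0, and for GH3.5 over GH3.6 replicate 2 lies at -0.04.

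Some Aux/IAA genes sit in 3 head-to-head neighbour pairs, with no protein-coding gene annotated between them. IAA14 and IAA1 face away from each other on chromosome 4 across 10.7 kb, IAA2 and IAA7 on chromosome 3 across 12.5 kb and IAA3 and IAA17 on chromosome 1 across 6.39 kb. Neighbours were near each other in TPM-like level in the first and the last pair (6.85 against 7.41, and 5.02 against 4.67), whereas IAA2 at 19.8 exceeded IAA7 at 3.04. IAA1 and IAA3 were lowest in replicate 3 and their neighbours IAA14 and IAA17 highest there, whereas IAA2 and IAA7 were both lowest in replicate 3, IAA7 with 3.58, 3.97 and 3.05 CPM.

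The auxin response element letters TGTCTC and TGTCGG, at which ARF proteins are known to bind, were searched on both strands from 250 bases before to 50 after each annotated gene start. TGTCTC was present for 12 of 29 Aux/IAA genes (41.4%) and 4 of 9 GH3 genes (44.4%), against 14.2% of 27443 windows of that size at protein-coding genes of the reference. TGTCGG was present for 6 Aux/IAA genes (20.7%) and no GH3 gene, against 5.12% of all windows. Over 1000 bases before the start, a window added after the first had been searched, TGTCTC was present for 58.6% of Aux/IAA genes, 66.7% of GH3 genes and 39.6% of all genes. Of the 12 Aux/IAA genes with TGTCTC in the window 5 were expressed (IAA1, IAA8, IAA20, IAA28 and IAA30), with a median TPM-like level of 1.68 over the 12, and of the 17 without it 15 were expressed, with a median of 19.8. Among the GH3 genes 3 of the 4 with TGTCTC and 4 of the 5 without it were expressed. Of the 6 Aux/IAA genes with TGTCGG 5 were expressed, and of the 23 without it 15. These counts were made after the levels had been seen and carry no test. IAA8, the highest member, had 1 copy of TGTCTC, and IAA19, which missed the threshold of 1 CPM in replicate 3 only, had 3. IAA9 and IAA4 had neither set of letters in the window. The 250 bases before the start are shown for IAA19, for GH3.3, and for GH3.5 and GH3.6, the pair with mixed ratios, on the coding strand of TAIR10.1, with matches in capitals.
IAA19: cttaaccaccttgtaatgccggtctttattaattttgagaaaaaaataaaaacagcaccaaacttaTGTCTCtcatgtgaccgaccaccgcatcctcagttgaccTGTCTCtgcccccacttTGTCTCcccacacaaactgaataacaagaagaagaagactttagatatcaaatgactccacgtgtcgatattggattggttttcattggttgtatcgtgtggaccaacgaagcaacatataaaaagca
GH3.3: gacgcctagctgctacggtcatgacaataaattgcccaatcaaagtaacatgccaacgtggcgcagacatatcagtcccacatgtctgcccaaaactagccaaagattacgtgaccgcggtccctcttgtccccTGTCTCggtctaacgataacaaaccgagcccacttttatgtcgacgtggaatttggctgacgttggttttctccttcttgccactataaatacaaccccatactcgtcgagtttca
GH3.5: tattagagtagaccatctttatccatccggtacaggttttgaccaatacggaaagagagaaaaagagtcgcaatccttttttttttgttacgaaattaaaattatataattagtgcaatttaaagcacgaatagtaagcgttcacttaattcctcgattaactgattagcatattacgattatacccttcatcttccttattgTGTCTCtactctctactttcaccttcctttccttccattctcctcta
GH3.6: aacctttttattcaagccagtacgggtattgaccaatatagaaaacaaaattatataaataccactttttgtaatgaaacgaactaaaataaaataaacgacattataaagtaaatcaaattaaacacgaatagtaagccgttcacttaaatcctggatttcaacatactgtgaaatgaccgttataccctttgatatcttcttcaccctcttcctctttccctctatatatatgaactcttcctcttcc
The windows are chr3:5263751-5264000 (plus strand), chr2:9866563-9866812 (minus), chr4:13653329-13653578 (plus) and chr5:22133689-22133938 (minus). GH3.5 carries 1 match, 47 bases before its start, and the GH3.6 window holds no match.

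Other genes of the pathway gave the setting for these levels. All 6 TIR1/AFB receptor genes and all 5 TOPLESS-type corepressor genes were expressed, with median TPM-like levels of 78.8 and 59.0. None of the 11 varied between libraries by the edgeR test. The background for these and the following lists is 63.2% of nuclear protein-coding genes expressed and 2.52% of genes tested varying. The lack of a varying gene among so few lies near that background. IAA8 and IAA9 were above the highest of these, TIR1 at 155 ± 14.9 and TPL at 119 ± 9.44. Of 22 ARF genes 15 were expressed, led by ARF2 at 210 ± 20.7, ARF6 at 178 ± 17.8 and ARF5 at 173 ± 22.6, all below the TPM-like means of IAA8 and IAA9. None of the 15 varied, and the other 7 ARF genes were listed at 0. Both ARF counts lay near the background shares.

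Some amidohydrolases of the ILR1 type release auxin from its amino acid conjugates, and which conjugates each listed member acts on was not examined. Of 7 genes of this family 6 were expressed, with IAR3 at a TPM-like level of 37.9 ± 5.13, ILL1 at 33.2 ± 1.01 and ILL6 at 21.5 ± 12.8. IAR3 lay below the mean of GH3.5 and within the spread of GH3.2 and GH3.3. ILL6 varied between libraries, with 16.0, 24.0 and 49.8 CPM (edgeR, adjusted p = 9e-07). Of 10 further GH3 genes 3 were expressed, JAR1, which conjugates jasmonate, at 20.6 ± 1.53, and below it AT5G13360 at 2.33 ± 0.28 and PBS3 at 1.43 ± 0.37. The gene AT1G14130, 1 of 2 in the list of auxin oxidation, was expressed at 16.7 ± 0.69.

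The SAUR genes, another large class of early auxin-induced genes, gave a lower count. Of 79 annotated SAUR genes 16 were expressed and 19 were listed at 0, with a median TPM-like level of 0.367 over all 79, against 5.28 for the Aux/IAA genes. The highest were AT1G75580 at 93.0 ± 4.02, AT4G34760 at 74.2 ± 16.0 and AT3G12830 at 24.8 ± 7.98. AT3G09870 was the 1 SAUR gene of 27 tested that varied, with 13.3, 7.57 and 1.76 CPM (edgeR, adjusted p = 1.57e-05), and it too was lowest in replicate 3.

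Of the 38 members, 10 overlap an annotated gene on the opposite strand (IAA3, IAA5, IAA9, IAA10, IAA11, IAA13, IAA27, IAA32, GH3.9 and GH3.10) and IAA34 overlaps a gene on its own strand. The library kit keeps the strand, but the strand setting of the authors' counting is not given in the sources used here, so levels of these genes may include reads of a neighbour.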

How the data were processed

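RNA-seq libraries (strand-specific TruSeq, paired 100 bp reads, per the labels' protocols) were deposited by the authors as raw counts per locus, whole numbers with no normalisation, for 32678 loci. The submitters' processing notes name HTSeq 0.6.1, TopHat2 2.1.0, Bowtie2 2.2.5 and FastQC, with the build TAIR10. The strand setting, and the treatment of reads that match more than 1 gene, were not given in the sources used here. The 279 organelle loci were left out, and no line lacked a gene name (0). Lengths, coordinates, coding models and upstream bases came from RefSeq's TAIR10.1 annotation, which matched 31912 loci. The lowest-numbered coding model of each gene was used. TPM-like levels divide CPM by the union of exons. Before pair ratios, 0.5 counts were added. edgeR 4.0.16 (R 4.3.3, TMM, filterByExpr, intercept only, trended dispersion) gave the goodness-of-fit test (chi-square, 2 degrees of freedom) of variation between libraries, with p-values adjusted by Benjamini-Hochberg over 18334 genes and a threshold of 0.05, and was tested on simulated data. DESeq2 1.42.0 size factors were an alternative. Protein sequences were not used here, so the pairs were taken from a written list of relatives, of which 10 of 12 were mutual closest coding sequences (Biopython 1.88). The members and lists were chosen with earlier results of these data known. All members are named, with up to 3 genes (SAUR 5) of each pathway list and every one that varied. Of the markers, STM, LFY, AP1 and genes whose highest library was 2 or more times the lowest could be named, and only those beside a result are given singly. Genes singled out beyond this were chosen after their values were seen. Of the pathway entries, 10 have no matching name in the reference and are given by locus or counted only.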

Additional observations from a re-analysis of the deposited data

How the results depend on the processing

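Counts of expressed members stayed within 1.5 times under 0.5 CPM, 10 counts, 1 TPM-like, TMM, DESeq2 size factors and organelle loci kept. The exception was 5 CPM, with 13 Aux/IAA genes. Without each replicate in turn the Aux/IAA count was 20 to 21 and the GH3 count 7. Members that varied numbered 1 with DESeq2 size factors, 0 with no filter on low counts, 21 under Poisson variation alone and 0 to 1 without each replicate in turn. The share of all genes that varied was 61% under Poisson variation and 1.16% to 1.57% without each replicate, where the test has fewer degrees of freedom. The adjusted p of GH3.5 ran from 1.95e-193 to 1 over its alternatives. The 9 pairs kept 8 with the same sign in every library, or 9 without replicate 2. With no length correction the share of IAA8 and IAA9 was 59.3% and that of GH3.5, GH3.6, GH3.2 and GH3.3 was 77.5%. Of 63 pair ratios under alternatives 58 moved by less than 1 SD and none reversed, and the 5 others came from length settings in the pairs IAA1 with IAA2, IAA12 with IAA13 and IAA18 with IAA26. Leaving out 1 of 3 libraries cannot move a mean by 1 SD, and the setting that admits all pairs leaves these ratios unchanged. The count of 58 thus overstates how stable the ratios are, and the length settings are the telling ones. No paired analysis was possible because all libraries belong to 1 group. With 3 libraries, counts under 20, as for IAA29, IAA34 and GH3.1, set the precision of the lowest members.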
